A study of Mus musculus with 13 samples.

Results

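The 7 genes described here encode the receptor tyrosine kinase Ret, its co-receptors Gfra1, Gfra2 and Gfra3, and the ligands Gdnf, Nrtn and Artn. They were chosen by name, as all probe sets annotated to exactly 1 of these genes, which gave 14 of the 45037 probe sets of the array that are not controls (2 for Ret, 3 for Gfra1, 5 for Gfra2 and 1 for each other gene). These genes and the lists below were chosen with earlier results of these data known. Their counts beside the shares of all genes are therefore descriptions and carry no test. Expression was measured on Affymetrix mouse arrays in 10 neuroblastomas, a tumour of the sympathetic nervous system, and in normal adrenal tissue, all on the C57BL/6 background. Double transgenic tumours carried both MYCN and mutated ALK (3 arrays), mutALK tumours the mutated ALK receptor kinase (3 arrays) and MYCN tumours the MYCN transcription factor (4 arrays), and normal adrenal tissue without a transgene gave 3 arrays. The transgenes were directed to the neural crest and tumours were collected once palpable, while promoter, the ALK mutation, age and sex are not given in the sources used here. By Xist and Y-linked transcripts 2 of 3 double transgenic, 1 of 3 mutALK and 3 of 4 MYCN arrays were male, against 0 of 3 adrenal arrays, so sex differed between the groups. That every array came from another animal is not stated in the labels, and the titles of mutALK 2 and 3, and of MYCN 2 and 3, share a number, so p-values measure only the spread between these arrays. No hybridisation or scan dates were read here, so a batch that holds 1 group cannot be told apart from that group. The 3 double transgenic arrays were numbered apart from the other arrays of the series and titled in another form. Whether they were also run apart is not stated, which bears on every double transgenic comparison.

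Ret is activated by a ligand of the GDNF family that is held by a GPI-anchored GFRα co-receptor, and the assembled complex signals through the RAS-ERK, PI3K and phospholipase C routes. GDNF binds mainly GFRα1, neurturin GFRα2 and artemin GFRα3. In the sympathetic nervous system artemin, GFRα3 and Ret guide the migration and axon growth of sympathetic neuroblasts, and Ret is also present in the adrenal medulla.

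The start regions of Gfra1 and Nrtn, a co-receptor and a ligand called between tumour groups below, are given first as genomic context. In the RefSeq promoter table (assembly GRCm38.p6) 4 of the 7 members were matched, with 5 annotated starts: Gfra1, Gdnf, Nrtn and Artn, while Ret, Gfra2 and Gfra3 were not. The 250 bases before the annotated start of Gfra1 lie at chr19:58455399-58455648 on the minus strand, inside the gene as annotated since other transcripts start further upstream, and those of Nrtn at chr17:56757549-56757798 on the minus strand, both written 5′ to 3′ along the gene with motif matches in capitals.
Gfra1: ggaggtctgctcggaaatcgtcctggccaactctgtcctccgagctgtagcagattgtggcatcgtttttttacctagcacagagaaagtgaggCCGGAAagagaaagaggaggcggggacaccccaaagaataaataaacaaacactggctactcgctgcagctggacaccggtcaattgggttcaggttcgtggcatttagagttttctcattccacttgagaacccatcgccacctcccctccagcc
Nrtn: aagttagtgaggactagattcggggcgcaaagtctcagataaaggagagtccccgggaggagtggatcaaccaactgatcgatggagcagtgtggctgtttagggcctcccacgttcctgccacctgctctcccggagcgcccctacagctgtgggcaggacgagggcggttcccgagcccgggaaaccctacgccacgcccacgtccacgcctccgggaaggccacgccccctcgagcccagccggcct
Windows of 300 bases (250 before and 50 after the start) were searched on both strands for the MYC E-box CACGTG, the ETS core CCGGAA and a paired homeodomain site (TAAT and ATTA separated by any 3 bases), which did not overlap here. The ETS core stood once, in the Gfra1 window, with its first base 156 bases before the start (position -156), and 14.9% of the 32851 promoters of that length hold it. Neither other motif was in any of the 5 member windows, against 7.15% of all promoters for the E-box and 0.487% for the homeodomain site.

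All 13 arrays had medians between 5.8 and 5.9 on the log2 scale, and arrays of one group correlated at 0.948 to 0.992 across probe sets. The mean of 8 adrenal cortex markers was 5.13 to 7.1 in the tumours and 11.98 to 13.22 in adrenal tissue, so adrenal cortex was plain in the arrays labelled adrenal. Adrenal 2 stood apart from adrenal 1 and 3: its mean over 9 of 10 sympathetic neuron and neuroblast markers was 10.57, against 8.51 and 7.26, and over 6 of 8 Schwann cell markers 8.88, against 6.3 and 6.02. In the tumours the Schwann cell mean was 6.72 to 6.97 in double transgenic, 6.36 to 8.46 in mutALK and 4.93 to 5.4 in MYCN arrays. The part of this difference in the levels of the genes below was not tested. Liver markers (7 of 8 measured) had a mean above 8 in double transgenic 1, mutALK 1, mutALK 3, MYCN 2 and adrenal 2, and of at most 6.32 in the other 8 arrays. The 5 arrays above 8 are called the liver arrays. Adrenal 2 was also the highest for kidney markers (5 of 5 measured), with a mean of 6.43 against 4.66 to 4.82 in all other arrays. For pancreas acinar markers (3 of 4 measured) its mean was 6.53, against 4.53 to 4.96. Of the genes behind the models, Alk averaged 9.11, 8.79 and 9.44 in double transgenic, mutALK and MYCN tumours, against 5.17 in adrenal tissue. The brightest Mycn probe set averaged 10.19, 12.03 and 6.35 in the same tumour groups, against 7.69 in adrenal tissue. It is not stated which of these probe sets would also detect transgene RNA, so they do not check the labels.

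Ret, the signalling receptor of the family, was high in every tumour that carried mutated ALK and far lower in MYCN tumours. On its brighter probe set, 1436359_at, the log2 level was 10.39, 10.54 and 11.07 in the 3 double transgenic tumours. It was 11.33, 12 and 12.32 in the 3 mutALK tumours. In the 4 MYCN tumours it was 6.83, 7.96, 8.23 and 8.19, and in adrenal tissue 6.10, 10.69 and 5.14. The 6 tumours with mutated ALK did not overlap the MYCN tumours. Among the adrenal arrays only adrenal 2 reached the level of the double transgenic tumours. Its sympathetic, Schwann cell, liver, kidney and pancreas acinar marker means were all above those of adrenal 1 and 3. Its chromaffin cell marker mean, 10.83, lay between those of adrenal 1 (11.23) and adrenal 3 (10.22). Its adrenal cortex marker mean, 11.98, was the lowest of the adrenal arrays. The part of these tissues in its Ret level was not tested. Group means were 10.67 ± 0.36, 11.88 ± 0.51, 7.80 ± 0.66 and 7.31 ± 2.96 (SD) in double transgenic, mutALK, MYCN and adrenal arrays. In bulk tissue fewer Ret-positive cells and less Ret RNA per cell cannot be told apart, here and for every gene below.

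**Figure D1:**
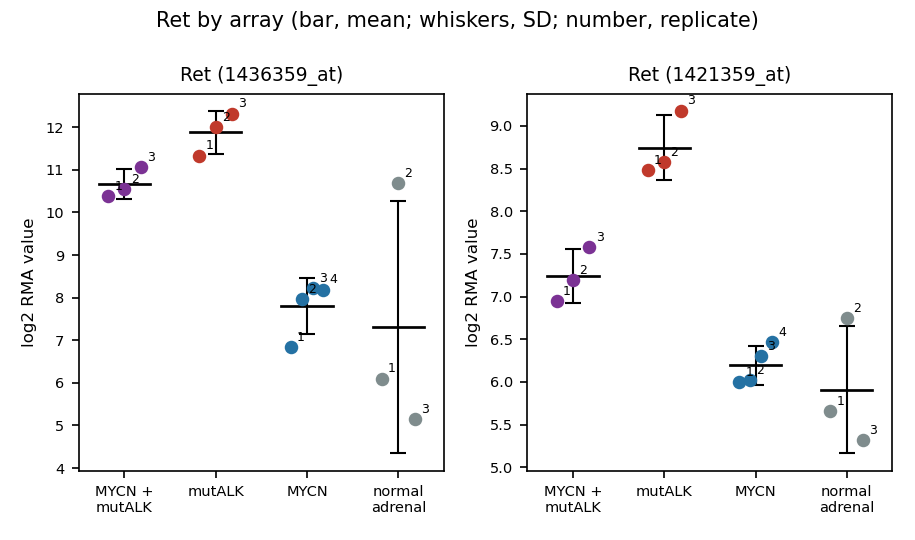
Log2 RMA value of the 2 Ret probe sets (vertical axis) in each array, by group along the horizontal axis. Points are arrays numbered by replicate, the bar is the group mean and the whiskers are the SD. All 3 mutALK tumours lie above all other arrays on both probe sets, the double transgenic tumours above all MYCN tumours, and adrenal 2 well above adrenal 1 and 3.

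The second Ret probe set, 1421359_at, ordered the groups the same way. It read 6.95, 7.19 and 7.58 in double transgenic tumours, 8.48, 8.58 and 9.18 in mutALK tumours, 6.00, 6.02, 6.30 and 6.47 in MYCN tumours, and 5.66, 6.75 and 5.32 in adrenal tissue. On both probe sets the 3 tumour groups did not overlap one another. The correlation of the 2 probe sets over the 13 arrays was 0.922.

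In the fit over all probe sets (limma, 1 mean per group, Benjamini-Hochberg adjustment), Ret 1436359_at rose in mutALK tumours by 4.57 ± 1.07 (SE) against adrenal tissue, or 23.8-fold (adjusted p = 0.00587), and by 4.08 ± 1.0 against MYCN tumours, or 16.9-fold (0.0115). In double transgenic tumours it rose by 3.36 ± 1.07 against adrenal tissue (10.2-fold, adjusted p = 0.0252). The second probe set gave 2.84 ± 0.33 (5.6e-05), 2.55 ± 0.31 (0.000187) and 1.33 ± 0.33 (0.00643) in these 3 comparisons. Between MYCN tumours and adrenal tissue the differences were 0.49 ± 1.0 (adjusted p = 0.746) and 0.29 ± 0.31 (0.51), with a 95% interval of -1.7 to 2.69 for the brighter probe set.

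The call between double transgenic and MYCN tumours depended on how the spread was estimated. Double transgenic minus MYCN was 2.86 ± 1.0 on the brighter probe set (95% interval 0.67 to 5.06, adjusted p = 0.0952) and 1.04 ± 0.31 on the other (0.0519), although all 3 double transgenic tumours were above all 4 MYCN tumours on both. All groups share 1 estimate of the spread, to which adrenal 2 adds. Without adrenal 2 the same values had adjusted p = 0.00117 and 0.00817, and with only the arrays of the 2 groups the brighter probe set had 0.00485. Double transgenic minus mutALK was -1.22 ± 1.07 on the brighter probe set (95% interval -3.57 to 1.13, adjusted p = 0.519, and 0.0631 without adrenal 2). On the second it was -1.51 ± 0.33 (0.0151), a call lost without double transgenic 2 (-1.49, 0.0543).

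Against adrenal tissue the size of the Ret differences rested on adrenal 2. Without it, 1436359_at was 5.04 ± 0.45 in double transgenic tumours (adjusted p = 7.28e-06), 6.26 ± 0.45 in mutALK tumours (2.12e-06) and 2.18 ± 0.43 in MYCN tumours (0.00174), so that MYCN tumours were then called higher as well. Double transgenic minus adrenal on this probe set lost its call without adrenal 1 (2.75, 0.0961), adrenal 3 (2.27, 0.104), double transgenic 2 (3.42, 0.0561) or double transgenic 3 (3.15, 0.0707), and with sex as a covariate (3.25, 0.0764). The mean over the sympathetic neuron and neuroblast markers ran in the same order as Ret, at 11.27 to 11.91 in double transgenic, 12.07 to 12.42 in mutALK and 9.79 to 10.44 in MYCN tumours, against 7.26 to 10.57 in adrenal tissue. The markers differed among themselves. Prph read 9.94 to 12.06, 12.67 to 13.02 and 3.73 to 4.35 in double transgenic, mutALK and MYCN tumours, while Isl1 read 12.98 to 13.23, 12.45 to 12.9 and 12.33 to 12.85. The mean over 8 chromaffin cell markers had the same tumour order, at 10.23 to 10.82, 11.24 to 11.6 and 9.34 to 9.83, against 10.22 to 11.23 in adrenal tissue. Th and Dbh are in both lists, so the list means are not independent. The chromaffin markers also differed among themselves. Slc18a2 read 11.68 to 12.12, 12.23 to 12.64 and 8.9 to 10.49 in double transgenic, mutALK and MYCN tumours. Chgb, at 11.08 to 11.4, 12.49 to 13.82 and 12.36 to 13.18, was lowest in double transgenic tumours. The part of these markers in the Ret differences was not tested.

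Among the co-receptors, Gfra3, which binds artemin, was raised in all 3 tumour groups and was highest in double transgenic tumours. Its probe set, 1418880_at, read 10.74, 10.84 and 10.54 in double transgenic tumours. It read 9.04, 9.82 and 9.81 in mutALK tumours, and 8.42, 8.39, 9.04 and 7.70 in MYCN tumours. Adrenal tissue had 6.57, 7.35 and 6.27, below every tumour, with adrenal 2 again the highest of the 3. The double transgenic tumours lay above all other arrays with an SD of 0.15.

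Against adrenal tissue Gfra3 rose by 3.98 ± 0.35 in double transgenic tumours (15.7-fold, adjusted p = 4.22e-06), by 2.83 ± 0.35 in mutALK tumours (7.1-fold, 8.22e-05) and by 1.66 ± 0.32 in MYCN tumours (3.15-fold, 0.00134). Double transgenic tumours exceeded MYCN tumours by 2.32 ± 0.32 (4.99-fold, adjusted p = 0.00165). These 4 calls held under every alternative run. Double transgenic minus mutALK was 1.15 ± 0.35 (2.22-fold, 95% interval 0.39 to 1.91), which missed the threshold at an adjusted p of 0.0512 and passed it without adrenal 2 (0.0279), MYCN 3 (0.0441) or MYCN 4 (0.0392). MutALK minus MYCN was 1.17 ± 0.32 (adjusted p = 0.0213), with mutALK 1 level with MYCN 3 at 9.04. That call was lost without mutALK 2 (1.04, 0.0914), mutALK 3 (1.04, 0.0732) or MYCN 4 (0.94, 0.051), or without the liver arrays (1.44, 0.076). In the order of the group means, double transgenic, mutALK, MYCN and adrenal, the first pair of neighbours was therefore the only one whose difference was not called.

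Gfra1, the co-receptor for GDNF, separated mutALK from MYCN tumours on its brightest probe set, 1439015_at. Levels were 6.84, 4.91 and 5.55 in double transgenic, 6.64, 6.67 and 5.60 in mutALK and 4.35, 4.91, 3.98 and 4.49 in MYCN tumours, against 5.29, 5.86 and 4.99 in adrenal tissue. The 3 double transgenic tumours spanned most of the range of all arrays. MutALK exceeded MYCN tumours in Gfra1 by 1.87 ± 0.43 (3.66-fold, adjusted p = 0.00802), a call that held under every alternative. The remaining comparisons were not called, with double transgenic minus MYCN at 1.33 ± 0.43 (0.071), which passed without double transgenic 2 (1.76, 0.0353). MYCN minus adrenal was -0.95 ± 0.43 (0.102), which passed without double transgenic 1 (0.0355), with the arrays of these 2 groups alone and without the liver arrays. MutALK minus adrenal was 0.92 ± 0.46 (0.157), which passed without the 5 liver arrays (1.53, 0.0132), with array weights and with sex as a covariate. Double transgenic minus mutALK was -0.54 ± 0.46 (0.502), and -1.45 (0.0358) without the liver arrays, where 1 mutALK array remains. Double transgenic minus MYCN also passed with sex as a covariate.

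The other Gfra1 probe sets were dim. The probe set 1450440_at ran from 3.30 to 4.27 over all arrays and was also called in mutALK minus MYCN (0.53 ± 0.16, adjusted p = 0.033). It lost that call without mutALK 1 or 2 or any one of the 4 MYCN arrays (values 0.44 to 0.55, adjusted p 0.0575 to 0.139), with the title number as a random block or with sex as a covariate. The probe set 1421973_at ran from 4.06 to 4.63, with mutALK minus MYCN at -0.04 ± 0.13 (0.87). The difference in Gfra1 was thus read by 2 of its 3 probe sets.

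Gfra2, the co-receptor for neurturin, showed no difference that was stable across its 5 probe sets. On the brightest, 1433716_x_at, levels were 7.64, 6.78 and 8.02 in double transgenic, 8.45, 7.86 and 8.54 in mutALK and 6.41, 6.13, 8.13 and 7.91 in MYCN tumours, against 8.44, 9.04 and 8.03 in adrenal tissue. MYCN tumours fell into a lower pair (MYCN 1 and 2) and a pair near the adrenal level (MYCN 3 and 4). MYCN minus adrenal was -1.36 ± 0.50 (0.39-fold, adjusted p = 0.0453). The call was lost without any one of 9 arrays (mutALK 1, 2 or 3, MYCN 1 or 2, adrenal 1 or 2, double transgenic 1 or 3), with values of -1.39 to -1.02 and adjusted p 0.05 to 0.154, and it was -0.75 (0.375) without the 5 liver arrays. The 4 other Gfra2 probe sets gave MYCN minus adrenal values of -0.26 to 0.07 and made no call in any comparison. The probe set 1425579_at moved by only 0.39 over the 13 arrays.

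**Figure D2:**
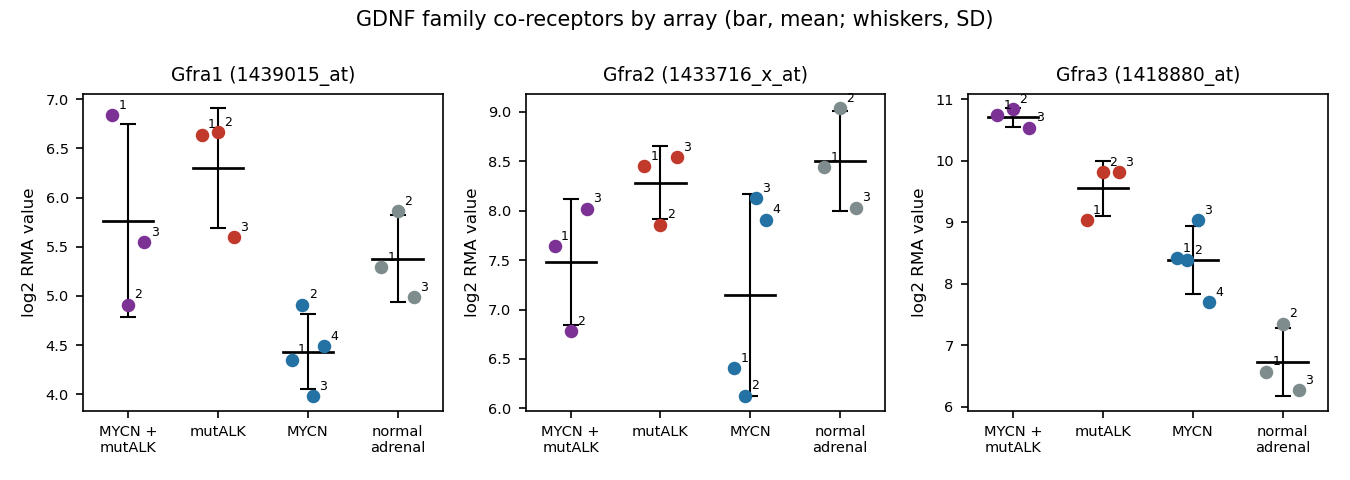
Log2 RMA value of the brightest probe set of Gfra1, Gfra2 and Gfra3 (vertical axis) in each array, by group along the horizontal axis, with the group mean (bar) and SD (whiskers). Gfra3 steps down from double transgenic through mutALK and MYCN tumours to adrenal tissue, Gfra1 is lowest in MYCN tumours, and the 4 MYCN tumours split on Gfra2.

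Of the ligands, Nrtn, which encodes neurturin, was lower in both tumour groups with mutated ALK than in MYCN tumours or adrenal tissue. Its levels were 6.54, 6.57 and 6.69 in double transgenic and 6.62, 7.09 and 6.98 in mutALK tumours, 7.02, 7.75, 7.70 and 8.24 in MYCN tumours, and 7.53, 7.69 and 7.89 in adrenal tissue. The double transgenic tumours lay below every MYCN and adrenal array, while the mutALK tumours overlapped MYCN tumours only through MYCN 1. Against adrenal tissue Nrtn fell by 1.1 ± 0.25 in double transgenic tumours (0.465-fold, adjusted p = 0.00343) and fell by 0.81 ± 0.25 in mutALK tumours (0.572-fold, 0.0249). Against MYCN tumours it fell by 1.08 ± 0.23 in double transgenic tumours (0.474-fold, 0.0134) and fell by 0.78 ± 0.23 in mutALK tumours (0.583-fold, 0.0295).

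MYCN minus adrenal for Nrtn was -0.03 ± 0.23 (95% interval -0.53 to 0.48, adjusted p = 0.941). MutALK minus adrenal lost its call without mutALK 1 (-0.67, 0.0935) or adrenal 3 (-0.72, 0.0849). MutALK minus MYCN lost it without mutALK 1 or 3 or MYCN 2, 3 or 4 (-0.82 to -0.59, adjusted p 0.0546 to 0.122). That call was also lost with the arrays of these 2 groups alone (-0.78, 0.0695). Without the 5 liver arrays none of the 4 Nrtn calls remained, at -1.08 (0.0524) and -0.62 (0.395) against adrenal tissue and -1.02 (0.101) and -0.56 (0.445) against MYCN tumours, for double transgenic and mutALK tumours in that order. The mean over 8 fibroblast and smooth muscle markers was 6.24 to 7.57 in double transgenic, 8.5 to 9.17 in mutALK and 8.33 to 9.1 in MYCN tumours, against 9.38 to 10.3 in adrenal tissue, and its part in the Nrtn differences was not tested.

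Gdnf and Artn were dim on every array. The Gdnf probe set read 3.52, 3.43 and 3.70 in double transgenic, 4.06, 4.62 and 3.70 in mutALK and 3.15, 3.42, 3.42 and 3.70 in MYCN tumours, against 3.93, 3.95 and 3.89 in adrenal tissue. Its mean over the arrays ranked at the 14.7th percentile of all probe sets, and whether it stood above background cannot be read from these values. Gdnf was called in 1 comparison, mutALK minus MYCN, at 0.71 ± 0.19 (1.63-fold, adjusted p = 0.0193), which was 0.46 (0.0791) without mutALK 2 and 0.61 (0.0509) without MYCN 1. The call was also lost with the shared title number as a random block (adjusted p = 0.081) and with the arrays of the 2 groups alone (0.0519). MYCN minus adrenal was -0.5 ± 0.19 (0.0545), with all 4 MYCN tumours below all adrenal arrays, and passed without mutALK 2 (0.0145), mutALK 3 (0.0261) or MYCN 4 (0.0353). Artn, which encodes artemin, the ligand of GFRα3, ranged from 3.88 to 4.58 over the 13 arrays and was called in none of the 6 comparisons (differences -0.26 to 0.22, lowest adjusted p 0.205).

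**Figure D3:**
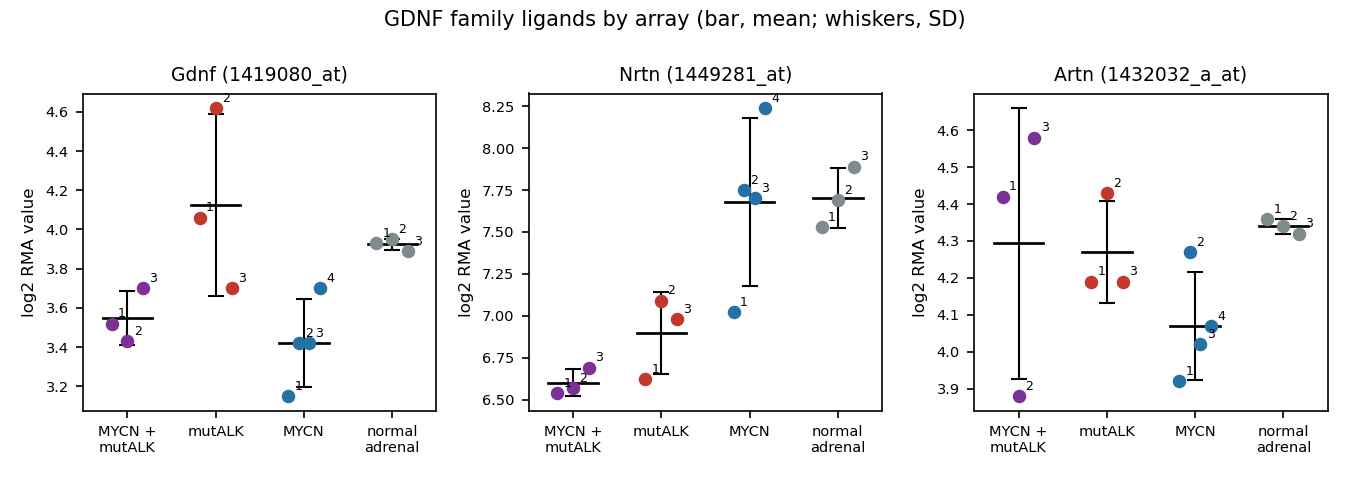
Log2 RMA value of Gdnf, Nrtn and Artn (vertical axis) in each array, by group along the horizontal axis, with the group mean (bar) and SD (whiskers). Nrtn lies between 6.54 and 6.69 in the double transgenic tumours, below all MYCN and adrenal arrays, while Gdnf and Artn stay under 4.7 on all arrays.

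Counted over the 14 probe sets, 3 were higher and 1 was lower in double transgenic tumours than in adrenal tissue, in a comparison where 41.4% of all probe sets were called. The same counts, 3 and 1, came from mutALK minus adrenal (33.2% of all called), and 1 and 1 from MYCN minus adrenal (41.7%). MutALK minus MYCN gave 6 higher and 1 lower (23.8% of all called), double transgenic minus MYCN 1 and 1 (10.9%), and double transgenic minus mutALK 0 and 1 (12.5%). By the brightest probe set of each of the 7 genes, mutALK minus MYCN called 5 (Ret, Gfra1, Gfra3 and Gdnf higher, Nrtn lower), where 29.4% of all 18193 genes were called. The median difference of the 7 genes in that comparison was 1.14, against 0 over all genes, and their median absolute difference 1.14, against 0.29. Against adrenal tissue the calls numbered 3 of 7 genes in double transgenic (47.6% of all genes called), 3 in mutALK (40.9%) and 2 in MYCN tumours (49.1%), shares near or below those of all genes. Double transgenic minus MYCN called 2 of 7 genes (12.2% of all genes), and double transgenic minus mutALK 0 of 7 (13.8%). In the latter the lowest unadjusted limma p-values of the 7 genes were 0.00654 for Gfra3 and 0.0164 for Gdnf. The comparisons that share a group share its arrays and are not independent.

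**Figure D4:**
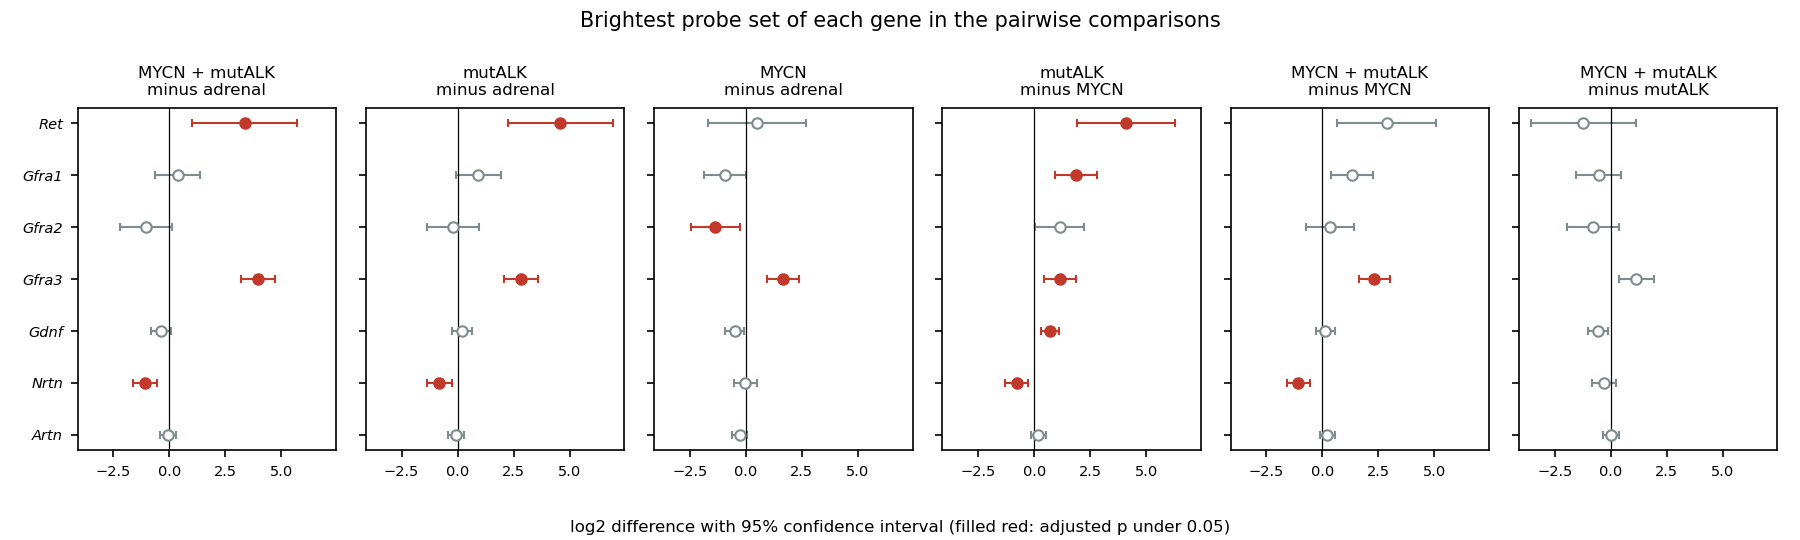
Log2 difference (horizontal axis) with its 95% confidence interval for the brightest probe set of each of the 7 genes (vertical axis) in the 6 comparisons, 1 per panel. Filled red points have an adjusted p under 0.05. Ret and Gfra3 extend to the right in both comparisons of mutated ALK tumours with adrenal tissue, Nrtn lies to the left there, and 5 genes are called in mutALK minus MYCN.

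Of the other ligands and receptors that touch this family, 4 of 6 were measured. Against adrenal tissue 2 were higher in double transgenic tumours (47.6% of all genes called), 1 was higher in mutALK tumours (40.9%) and 2 were higher and 1 lower in MYCN tumours (49.1%). By the brightest probe set of each gene 0 were called in mutALK minus MYCN (29.4%), double transgenic minus MYCN (12.2%) or double transgenic minus mutALK (13.8%). Gfra4, the persephin co-receptor, averaged 6.29 ± 0.06 in double transgenic, 6.23 ± 0.34 in mutALK and 6.77 ± 0.20 in MYCN tumours, against 5.60 ± 0.49 in adrenal tissue. It rose by 1.17 ± 0.22 in MYCN tumours (adjusted p = 0.000957) and by 0.69 ± 0.23 in double transgenic tumours (0.0317), and was 0.63 ± 0.23 in mutALK tumours (0.0579). The double transgenic call was lost without adrenal 3 (0.41, 0.119) or any one double transgenic array (0.66 to 0.72, 0.0598 to 0.0751), and the mutALK value passed without mutALK 1 (0.8, 0.0304) or adrenal 2 (0.79, 0.0258). Pspn, the gene of persephin, was dim (3.59 to 4.31) and was called in no comparison.

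Ncam1, an adhesion molecule that can serve as a Ret-independent GDNF receptor, averaged 12.38 ± 0.17, 12.28 ± 0.28 and 11.41 ± 0.23 in double transgenic, mutALK and MYCN tumours, against 8.94 ± 1.47 in adrenal tissue, on its brightest probe set. It rose against adrenal tissue by 3.43 ± 0.53, 3.34 ± 0.53 and 2.46 ± 0.49 (adjusted p = 0.000261, 0.000462 and 0.00156). Its 7 probe sets did not agree between tumours: in double transgenic minus mutALK, 1439556_at gave 2.57 ± 0.45 (0.00626) and the brightest 0.1 ± 0.53 (0.937). Without adrenal 2 the brightest was also called in double transgenic minus MYCN (0.97, 0.0187) and mutALK minus MYCN (0.87, 0.0168). Sdc3, a proteoglycan that binds GDNF, fell in MYCN tumours by 1.15 ± 0.24 against adrenal tissue on its brightest probe set (0.00214), and without adrenal 2 also in double transgenic (-0.94, 0.00305) and mutALK tumours (-0.75, 0.014). Gdf15 and Gfral, the remaining genes of the list, had no probe set annotated to them alone.

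Of the transcription factors known to act on Ret, 10 of 12 were measured. Against adrenal tissue 3 were higher and 2 lower in double transgenic tumours (47.6% of all genes called), 4 and 2 in mutALK (40.9%) and 4 and 2 in MYCN tumours (49.1%). Gata3, a factor of sympathetic neurons, rose against adrenal tissue by 2.98 ± 0.33 in double transgenic (adjusted p = 2.35e-05), 4.34 ± 0.33 in mutALK (3.15e-06) and 2.51 ± 0.31 in MYCN tumours (4.3e-05). Hoxb5, a homeobox factor that binds the RET promoter in human cells, fell by 4.44 ± 0.32, 4.42 ± 0.32 and 4.35 ± 0.30 (adjusted p = 1.35e-06, 2.46e-06 and 6.46e-07), and read 3.06 to 3.72 in all 10 tumours. Hand2, a factor of noradrenergic differentiation, rose by 2.0 ± 0.47, 2.38 ± 0.47 and 2.04 ± 0.44 (0.00465, 0.00202 and 0.00252). Phox2a, a homeobox factor of noradrenergic neurons, rose by 2.67 ± 0.64 in mutALK (0.00681) and 1.77 ± 0.60 in MYCN tumours (0.0331) and was 1.3 ± 0.64 in double transgenic tumours (0.131). Gata3, Hand2 and Phox2a are also among the sympathetic markers given above.

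Between tumours Tlx2 and Gata3 were called. Tlx2, a homeobox factor of enteric and sympathetic neurons, averaged 8.24 ± 0.25 in double transgenic, 8.57 ± 0.14 in mutALK and 6.58 ± 0.11 in MYCN tumours, against 7.05 ± 0.89 in adrenal tissue. It was higher by 1.99 ± 0.31 in mutALK than in MYCN tumours (adjusted p = 0.00089) and by 1.66 ± 0.31 in double transgenic than in MYCN tumours (0.00697). Gata3 was called higher in mutALK minus MYCN (1.84 ± 0.31, 0.00138) and lower in double transgenic minus mutALK (-1.37 ± 0.33, 0.0227), the second call lost without mutALK 1 or 2 or double transgenic 2. Without the liver arrays, where 1 mutALK array remains, these Gata3 differences were 1.64 and -1.11. Tlx2 and Gata3 gave the only calls between tumours in the list, with 2 of 10 in mutALK minus MYCN (29.4% of all genes called), 1 of 10 in double transgenic minus MYCN (12.2%) and 1 of 10 in double transgenic minus mutALK (13.8%), near the shares of all genes.

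Among genes that respond to GDNF and RET in the ureteric bud, where much of the pathway was worked out, 8 of 9 were measured, and against adrenal tissue 2 were higher and 3 lower in double transgenic (47.6% of all genes called), 2 and 0 in mutALK (40.9%) and 1 and 4 in MYCN tumours (49.1%). Of the 8, 5 were higher and 1 was lower in mutALK than in MYCN tumours, where 29.4% of all genes were called in either direction, and the median difference was 1.18 against 0 over all genes. Etv5, an ETS factor downstream of Ret, read 9.98, 9.38 and 9.45 in double transgenic, 9.27, 8.52 and 9.43 in mutALK and 5.85, 4.97, 5.11 and 6.14 in MYCN tumours, against 8.64, 8.29 and 8.78 in adrenal tissue. The MYCN tumours thus stood alone at the low end. Etv5 was higher by 4.09 ± 0.31 in double transgenic (adjusted p = 7.65e-05) and by 3.56 ± 0.31 in mutALK (3.2e-05) than in MYCN tumours, and fell by 3.05 ± 0.31 in MYCN tumours against adrenal tissue (1.01e-05). These values kept their call under every alternative.

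Dusp6, a phosphatase that switches off ERK, was near the adrenal level in mutALK tumours and lower in the other 2 tumour groups. It read 8.36, 7.86 and 9.37 in double transgenic, 9.70, 11.39 and 11.24 in mutALK and 7.75, 7.81, 8.02 and 8.31 in MYCN tumours, against 10.95, 10.60 and 10.94 in adrenal tissue. MutALK minus MYCN was 2.8 ± 0.41 (adjusted p = 0.000603) and double transgenic minus mutALK -2.24 ± 0.44 (0.0095). The second call was lost with the arrays of the 2 groups alone (adjusted p = 0.0768). Against adrenal tissue Dusp6 fell by 2.3 ± 0.44 in double transgenic (0.00122) and by 2.86 ± 0.41 in MYCN tumours (0.000141). Etv4, a relative of Etv5, rose in mutALK tumours against adrenal tissue by 1.37 ± 0.46 (0.0376), a call lost without any one of 7 arrays, and was higher than in MYCN tumours by 1.54 ± 0.43 (0.0211). Double transgenic 3 stood at 7.24 against 5.39 and 5.28 in the other 2. Myb, a proliferation factor, ran the other way, at 8.0 ± 0.12, 7.18 ± 0.87 and 8.82 ± 0.24 in double transgenic, mutALK and MYCN tumours against 3.78 ± 0.39 in adrenal tissue, with mutALK minus MYCN at -1.63 ± 0.33 (0.00394). In double transgenic minus MYCN only Etv5 was higher and Spry1 lower among the 8 (12.2% of all genes called), and in double transgenic minus mutALK Dusp6, Mmp14 and Spry1 were lower (13.8% of all genes called).

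Feedback genes of receptor tyrosine kinases, a list chosen with earlier results of these data known, also differed between the tumours. Of 8 measured, 6 were higher and 0 lower in mutALK minus MYCN (29.4% of all genes called), with a median difference of 1.52 against 0 over all genes. In double transgenic minus MYCN 4 were higher and 1 lower (12.2%), and in double transgenic minus mutALK 0 were higher and 2 lower (13.8%). Against adrenal tissue 2 were higher and 3 lower in double transgenic (47.6%), 3 and 1 in mutALK (40.9%) and 0 and 5 in MYCN tumours (49.1%). Spry4, an inhibitor of RAS-ERK signalling, read 6.18, 5.65 and 7.39 in double transgenic, 8.89, 8.90 and 9.30 in mutALK and 3.81, 5.56, 5.78 and 5.79 in MYCN tumours, against 6.87, 8.05 and 7.03 in adrenal tissue. The mutALK tumours were above all other arrays. MutALK minus MYCN was 3.8 ± 0.52 (adjusted p = 0.000403). Double transgenic minus mutALK was -2.62 ± 0.56 (0.0136), a call lost without double transgenic 2 (-2.24, 0.0596). Without the liver arrays, where 1 mutALK array remains, this difference was -2.38. Spred3, of a family of ERK inhibitors, was higher than in MYCN tumours by 2.06 ± 0.32 in double transgenic (0.0026) and 2.29 ± 0.32 in mutALK tumours (0.000406), and Dusp4, another ERK phosphatase, by 2.67 ± 0.61 (0.0175) and 2.04 ± 0.61 (0.0303). In the double transgenic comparison the Dusp4 call was lost without MYCN 2 or double transgenic 3, among other settings. In the mutALK comparison it was lost without mutALK 2 or 3 or MYCN 1, 2 or 3, among other settings. Without the liver arrays, where 1 mutALK array remains, these Dusp4 differences were 2.24 and 1.5. Mutated ALK itself also activates the ERK route, and in these groups its part in these levels and that of Ret cannot be told apart.

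**Figure D5:**
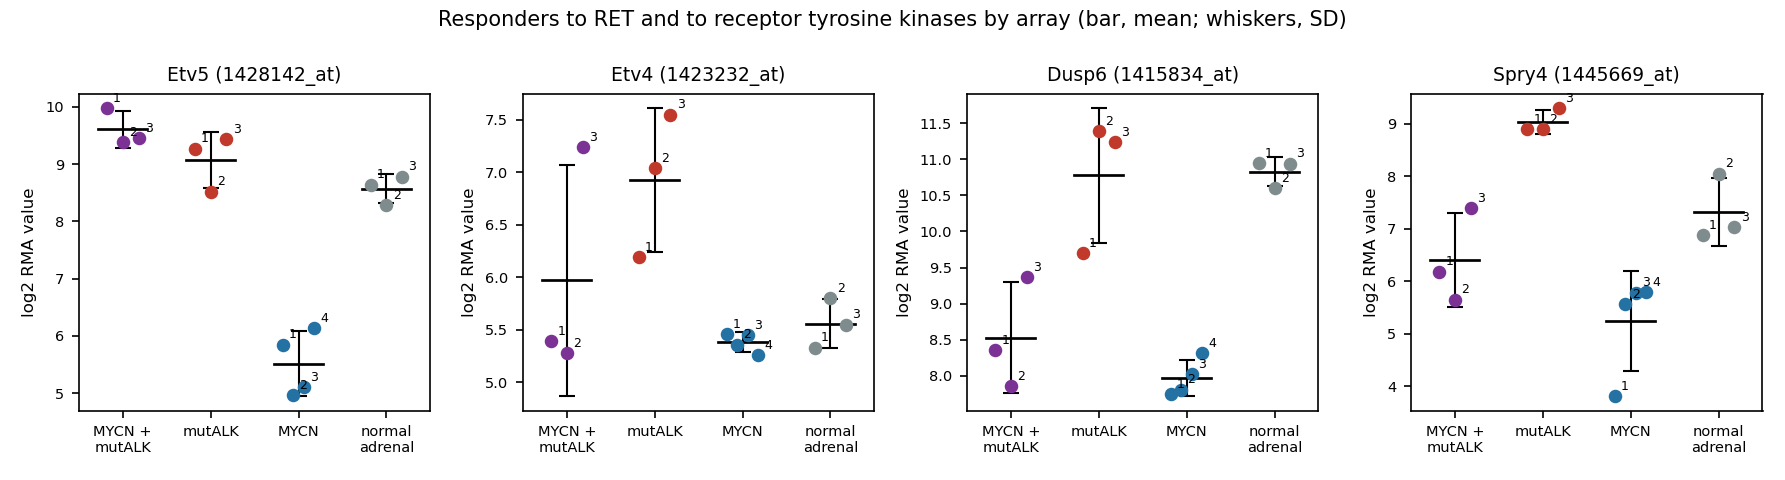
Log2 RMA value of Etv5, Etv4, Dusp6 and Spry4 (vertical axis) in each array, by group along the horizontal axis, with the group mean (bar) and SD (whiskers). Etv5 is low only in MYCN tumours, while Dusp6 and Spry4 are high in mutALK tumours and lower in double transgenic and MYCN tumours.

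Adaptors and effectors that bind Ret, 25 measured of 27, were called about as often as all genes against adrenal tissue: 8 higher and 4 lower in double transgenic (47.6% of all genes called), 8 and 2 in mutALK (40.9%) and 7 and 7 in MYCN tumours (49.1%). Gab2, a docking protein of the PI3K route, rose by 2.3 ± 0.16, 1.88 ± 0.16 and 2.49 ± 0.15 (adjusted p = 1.25e-06, 8.41e-06 and 3.23e-07), and Shc2, a neuronal adaptor, by 1.66 ± 0.16, 1.73 ± 0.16 and 1.8 ± 0.15 (1.05e-05, 1.51e-05 and 2.82e-06), in double transgenic, mutALK and MYCN tumours. Pdlim7, also of this list, rose against adrenal tissue by 1.64 ± 0.42 in mutALK (0.0102) and 2.57 ± 0.40 in MYCN tumours (0.000233). Unlike Ret it was highest in MYCN tumours, at 9.14 to 9.67, against 7.87 to 8.26 in double transgenic and 8.2 to 8.64 in mutALK tumours. Pik3r1 rose by 1.5 ± 0.35 in double transgenic tumours (0.00414). Between tumours Irs2 and Shc1 had the largest called differences of the list in mutALK minus MYCN and in double transgenic minus mutALK. Shc1, which links phosphorylated receptors to RAS, averaged 8.02 ± 0.12 in double transgenic, 9.23 ± 0.27 in mutALK and 7.24 ± 0.15 in MYCN tumours, against 8.51 ± 0.25 in adrenal tissue. It was called in double transgenic minus MYCN (0.78 ± 0.15, 0.00838), mutALK minus MYCN (1.99 ± 0.15, 2.04e-05) and double transgenic minus mutALK (-1.21 ± 0.16, 0.00188). Irs2, a docking protein first known from insulin signalling, differed by 2.76 ± 0.37 in mutALK minus MYCN (0.000334) and by -1.75 ± 0.39 in double transgenic minus mutALK (0.0171). The second Irs2 call was lost without mutALK 1 or 2 or double transgenic 2, and with the arrays of the 2 groups alone (0.0516). Without the liver arrays, where 1 mutALK array remains, this Irs2 difference was -1.7. In all, 5 were higher and 2 lower in mutALK minus MYCN (29.4% of all genes called), 1 and 0 in double transgenic minus MYCN (12.2%), and 2 and 5 in double transgenic minus mutALK (13.8%).

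Of 9 genes that restrain Ret or remove it, all measured, 3 were higher and 2 lower in double transgenic than in adrenal tissue (47.6% of all genes called), 3 and 3 in mutALK (40.9%) and 3 and 3 in MYCN tumours (49.1%). Ptprf, a receptor phosphatase that acts on Ret, rose by 1.57 ± 0.22, 1.87 ± 0.22 and 1.18 ± 0.20 (adjusted p = 0.000121, 5.57e-05 and 0.000551). Rap1gap, which acts downstream of Ret on RAP1, was lower than in adrenal tissue at -2.29 ± 0.29, -2.31 ± 0.29 and -2.36 ± 0.27 (6.27e-05, 9.46e-05 and 2.52e-05), and Lrig1, which limits Ret activation by GDNF, at -1.21 ± 0.34, -1.74 ± 0.34 and -1.14 ± 0.32 (0.0127, 0.00187 and 0.0124). The MYCN value of Lrig1 lost its call without adrenal 2 (-0.78, 0.0548). Between tumours Sh3kbp1 and Ptprf were called in mutALK minus MYCN, where 29.4% of all genes were called. Sh3kbp1 gave 1.02 ± 0.31 (0.0344) and Ptprf 0.7 ± 0.20 (0.0272), both lost without mutALK 1 or 2 or MYCN 2 or 3, among other arrays.

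The members did not all vary together. Over the 13 arrays, Pearson's correlation with the brighter Ret probe set was 0.745 for Gfra3, 0.629 for Gfra1, 0.339 for Gdnf, 0.271 for Gfra2, 0.201 for Artn and -0.604 for Nrtn, all on their brightest probe sets, and Gfra3 and Nrtn correlated at -0.789. Over the 10 tumours alone the values with Ret were 0.679, 0.757, 0.686, 0.621, 0.502 and -0.597 in the same order. These correlations describe arrays that share group and tissue makeup and carry no test. The genes whose pattern was most like Ret over the 13 arrays were Apba1 (0.97), Gnaz (0.968) and Clgn (0.967), and over the 10 tumours Vamp3 (0.992), Galnt3 (0.984) and Ndufs5 (0.981), so that no gene was in both sets. Those most like Gfra3 were Arpp19 (0.966), Septin6 (0.96) and Klhl13 (0.957), those most like Gfra1 were Slc27a4, Stard10 and Slc22a26 (0.903 to 0.926), and those most like Nrtn were Pcdh18, Plxnd1 and Myh11 (0.902 to 0.919). Gdnf was closest to Tm4sf1, Stat3 and Ppm1h (0.903 to 0.936), Gfra2 to Abhd15, Igfbp5 and Snx21 (0.833 to 0.854) and Artn to Sntg2, Trpm3 and Pls1 (0.842 to 0.864).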

How the data were processed

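RNA of 13 tissue samples was labelled with biotin and hybridised to Affymetrix mouse arrays, per the labels' protocols. The deposited log2 values are probe set summaries that the authors made with RMA and Partek, per the submitters' processing notes, which give no versions. RMA corrects background and normalizes between arrays and compresses differences of dim probe sets. The sorted columns differed by at most 0.233, no detection calls were read, and the number of arrays per group (3 or 4) limits the precision.

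Of 45101 probe sets 64 controls were left out. Probe sets with 1 gene (34945) were named from the platform annotation, 34741 matched RefSeq by gene ID with 0 symbols changed, and those with several genes (932) or none (9160) were tested but not named. The fit used limma 3.58.1 in R 4.3.3 (lmFit and eBayes, 1 mean per group, 9 residual and 2.45 prior degrees of freedom) on all 45037 probe sets. Two-sided tests of 6 contrasts were each adjusted over all probe sets (Benjamini-Hochberg) and called at an adjusted p under 0.05. The brightest probe set has the highest mean over the arrays. Every member probe set and the other family ligands and receptors are described, with up to 3 called genes per further list and comparison and the 3 genes most correlated with each member, predicted genes left out. Members and lists were chosen with earlier results of these data known. The fit was tested on simulated data. Python 3.11.15 with matplotlib 3.10.9 made the figures.

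The 24 alternatives were quantile normalization again, median centring, 1 brightest probe set per gene, the mean of a gene's probe sets, no dimmest 40%, array weights, robust eBayes with a variance trend, the 2 groups alone, the number in the sample title as a random block, sex read from Xist and Y-linked genes as a covariate, no liver arrays, and each array left out.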

Additional observations from a re-analysis of the deposited data

Results flagged for a closer look

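In the MYCN group, the only one with 4 arrays, 55 probe sets of the members and named genes were checked for an array far from the other 3 by Dixon's test, and 6 were found, where chance alone gives about 1 in 20. None of the 14 member probe sets was among them. MYCN 1 was low for Spry4 1445669_at at 3.81, against 5.56 to 5.79 in the other 3 arrays, and for Spred1 1423160_at at 7.49, against 8.13 to 8.24. MYCN 2 was low for Shc1 1422854_at at 7.02, against 7.30 to 7.34, and for Spred3 1435852_at at 4.24, against 5.07 to 5.21. MYCN 4 was high for Rap1gap 1428443_a_at at 7.74, against 6.90 to 6.97, and for Spry1 1415874_at at 8.0, against 7.68 to 7.72.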

How the results depend on the processing

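Of the 84 member values (14 probe sets in 6 comparisons) 20 were called, 9 of them under every one of the 24 alternatives, and 50 of the 64 others were called under none. No called value changed sign, while 57 alternative values that were called in neither setting did. Of 95 further named values that were called, 64 stayed called throughout. With only the 2 groups compared, Ret 1436359_at lost its call in double transgenic minus adrenal (3.36, adjusted p = 0.118) and mutALK minus adrenal (4.57, 0.0599), and gained one in double transgenic minus MYCN (2.86, 0.00485). With sex as a covariate it lost its call in double transgenic minus adrenal (3.25, 0.0764). With array weights it gained calls in MYCN minus adrenal (1.85, 0.00769) and double transgenic minus MYCN (2.69, 0.0199), as it did without the liver arrays (2.13, 0.012, and 3.05, 0.0155). Leaving out single arrays gave Ret values of 2.27 to 5.04, 3.49 to 6.26 and -0.59 to 2.18 in double transgenic, mutALK and MYCN minus adrenal, and of 3.76 to 4.36, 2.54 to 3 and -1.49 to -1 in mutALK minus MYCN, double transgenic minus MYCN and double transgenic minus mutALK.

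Counts of called members moved by over 1.5 times as follows. In MYCN minus adrenal (2 probe sets and 2 genes as reported) 5 probe sets were called with array weights, 4 without the liver arrays and 1 with the title number block (correlation 0.417) or sex, where 1 gene was called. In mutALK minus MYCN 3 genes in place of 5 were called with only the 2 groups or without the liver arrays. In double transgenic minus MYCN 4 probe sets in place of 2 were called with array weights or only the 2 groups. In double transgenic minus mutALK (1 probe set, 0 genes) 2 probe sets and 1 gene were called without the dimmest 40%, 1 gene with 1 value per gene by either rule, and 4 probe sets and 2 genes without the liver arrays. Leaving out single arrays gave 1 to 3 probe sets and genes in MYCN minus adrenal, 4 to 7 and 3 to 5 in mutALK minus MYCN, 2 to 4 and 2 to 3 in double transgenic minus MYCN, and 0 to 3 and 0 to 1 in double transgenic minus mutALK. Among all features, leaving out the dimmest 40%, which tests fewer probe sets, raised the share called to 37.8% in mutALK minus MYCN, 18.3% in double transgenic minus MYCN and 21.5% in double transgenic minus mutALK, where the 2 groups alone gave 3.64% and the title block 7.66%. Single arrays moved the last 2 shares between 5.72% and 15.3% and between 4.93% and 17.2%. Where no cause is named it was not tested.

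No paired analysis was possible because the labels number replicates only in the adrenal group and no number is shared between groups. Without the liver arrays mutALK is 1 array, assumed to vary like the other groups. Gdnf, Artn and most Gfra1 and Gfra2 probe sets are dim, where RMA values understate differences.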
